A study of Mus musculus with 8 samples.

Results

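The genes described here are the 9 genes B2m, Tap1, Tap2, Tapbp, Psmb8, Psmb9, Psmb10, Nlrc5 and Erap1, which carry out or control the processing of antigens for MHC class I molecules. A probe set was taken for a gene where the platform annotation gave it exactly that 1 symbol, and of several probe sets of a gene the 1 with the highest mean over the arrays was kept. All 9 genes were found, with 27 probe sets of the 21789 that had 1 symbol, and they are 9 of the 19938 genes compared.

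Class I molecules show fragments of a cell's own proteins at its surface, where T cells read them. The proteasome cuts the proteins, a transporter in the membrane of the endoplasmic reticulum carries the fragments in, an aminopeptidase trims them, and a loading complex places them on a heavy chain paired with beta-2 microglobulin. Interferon raises most of these genes together, and many carcinomas are known to keep some of them low.

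Levels came from 8 Affymetrix MoGene ST arrays of total RNA in 4 groups of 2, named by mouse cell line and culture. MBA-15 is a stromal line of pre-osteoblastic character and DA3 is a mammary adenocarcinoma line. Each was grown by itself as a control or together with the other, DA3 being laid on an MBA-15 monolayer in DMEM with 10% FCS. Co-cultured cells were separated by binding DA3 to particles that recognise EpCAM (CD326). The groups are called co-cultured MBA-15, lone DA3, co-cultured DA3 and, for a reason given next, the arrays labelled MBA-15 alone. The descriptions name 24 h and the growth protocol 24 or 48 h. Those of the 4 arrays of cells grown alone carry the word mix, with nothing more said, and no agent or genetic change is named for any group. Whether a pair of arrays comes from separate cultures is not stated, so p-values reflect only the spread of these arrays, which may be technical.

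Epcam, whose product the particles bind, went against a label: it was high (8.45 and 9.25) on both arrays labelled MBA-15 alone and low (5.58 and 5.19) in co-cultured MBA-15, with the 4 DA3 arrays at 9.30 to 9.57. The mean of 12 epithelial markers followed it, at 8.26 and 8.74 on arrays labelled MBA-15 alone, 5.13 to 5.24 in co-cultured MBA-15 and 9.39 to 9.46 in lone DA3. The mean of 12 stromal markers was 6.61 and 6.03 in co-cultured DA3 against 5.34 and 5.35 in lone DA3, and it was 8.41 to 9.09 on the 4 MBA-15 arrays. Of 11 leukocyte markers 1 or 2 lay above the lowest array median (4.48) on any array, with means of 3.93 to 4.25 and Ptprc, the common leukocyte antigen, at 3.71 to 4.35, and 0 of 5 endothelial markers did. The lines are therefore compared below with co-cultured MBA-15 as the MBA-15 side, and the arrays labelled MBA-15 alone are given beside it. Against lone DA3 this side differs both in line and in co-culture with separation, and the 2 cannot be told apart there.

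The regulatory stretches of 3 places are shown because 2 of the genes, Tap1 and Psmb9, lie head to head and share theirs, and because B2m and Erap1 hold a motif read by interferon-responsive factors. In the RefSeq table of GRCm38.p6 the genes Psmb9, Tap1, Psmb8 and Tap2 follow each other directly, between H2-DMb1 and H2-Ob of the class II region. The gene starts of Psmb9 and Tap1 are 226 bases apart and point away from each other, so the 225 bases between them lie upstream of both. The stretches are B2m at chr2:122147537-122147686, the 150 bases before its start, then the bases between Psmb9 and Tap1 at chr17:34187331-34187555, and Erap1 at chr13:74639839-74639868 across its start. All are from RefSeq on GRCm38.p6, plus strand, with motif matches in capitals.
B2m: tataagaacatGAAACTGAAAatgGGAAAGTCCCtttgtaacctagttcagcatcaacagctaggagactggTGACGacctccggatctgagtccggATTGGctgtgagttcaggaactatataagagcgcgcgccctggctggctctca
Psmb9-Tap1: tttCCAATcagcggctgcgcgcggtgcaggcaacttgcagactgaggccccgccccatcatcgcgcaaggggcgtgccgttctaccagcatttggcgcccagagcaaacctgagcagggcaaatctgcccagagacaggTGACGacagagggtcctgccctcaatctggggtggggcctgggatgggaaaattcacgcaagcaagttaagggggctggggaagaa
Erap1: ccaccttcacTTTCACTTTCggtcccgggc

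The motifs searched on both strands were the core of the interferon-stimulated response element (GAAA, any 2 bases, GAAA), a kappa B element (GGGA, any base, TTTCC), TTCNNNGAA (a gamma-activated site), TGACG (part of the X2 box and of the cAMP response element) and CCAAT (the CCAAT box). Windows of 300 bases, 250 before and 50 after the start, were found for 7 of the 9 genes, those other than Tap2 and Nlrc5. The interferon element was in the windows of B2m and Erap1 and in 3.44% of all 32851 windows, and the kappa B element in that of B2m and in 0.411% of all. The B2m matches to the interferon element, the kappa B element, TGACG and CCAAT begin 139, 126, 78 and 53 bases before the start and do not overlap. TGACG was in the windows of B2m, Tap1 and Psmb9 (20.8% of all), CCAAT in those of B2m, Tap1, Psmb9 and Tapbp (37.4%), and TTCNNNGAA in that of Psmb8 (8.3%). The Tap1 and Psmb9 windows overlap, so their matches are the same bases, and a match is a description of the letters, not evidence of binding.

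Co-cultured MBA-15 arrays held more RNA of most of these genes than lone DA3 arrays. In all, 5 of the 9 genes passed as higher and 0 as lower: Psmb8, B2m, Tap1, Psmb9 and Erap1 (limma fitted to all 8 arrays, Benjamini-Hochberg adjustment over all genes, threshold 0.05). Of all 19938 genes 6.08% passed as higher in this comparison and 6.47% as lower, which are 1213 and 1290 genes, or 1070 and 1722 with each array centred on its median. The median log2 difference was 1.29 over the 9 genes and 0.00 over all genes. For 8 of the 9, all but Nlrc5, both co-cultured MBA-15 arrays lay above both lone DA3 arrays, which held for 27.2% of all genes.

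**Figure D1:**
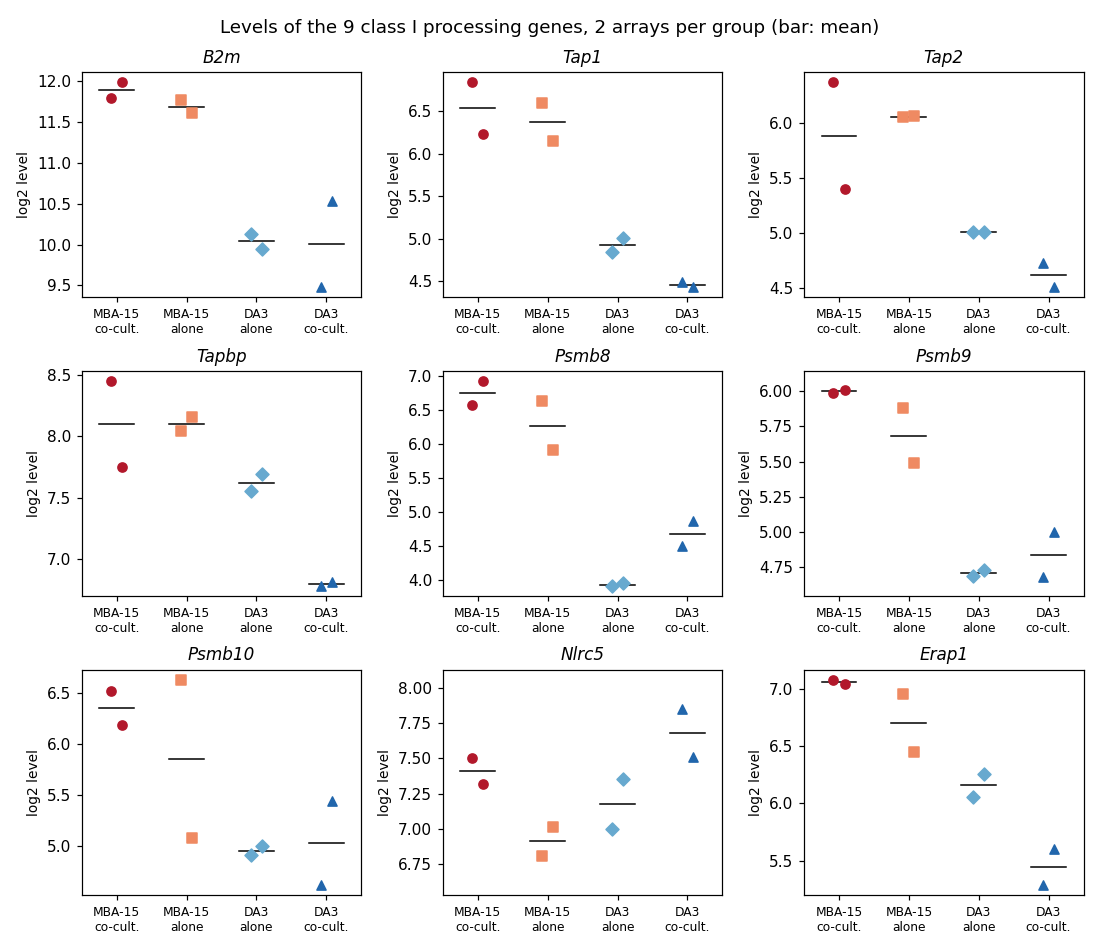
Log2 level of each of the 9 genes on the 8 arrays, 2 points per group with a bar at their mean, each panel on its own vertical scale. In 8 panels the 2 co-cultured MBA-15 points lie above the 2 points of lone DA3 and of co-cultured DA3, and in the Nlrc5 panel they do not.

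B2m encodes beta-2 microglobulin, the light chain that every classical class I molecule needs. Its log2 level was 11.80 and 11.99 in co-cultured MBA-15, 11.77 and 11.61 on arrays labelled MBA-15 alone, 10.13 and 9.95 in lone DA3, and 9.48 and 10.53 in co-cultured DA3. The co-cultured DA3 arrays were farthest apart, with a gap of 1.05, and enclosed the lone DA3 arrays. Relative to lone DA3 the level in co-cultured MBA-15 was higher by 1.86 ± 0.32 log2 units (SE, limma adjusted p = 0.0123), or 3.63-fold.

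Psmb8, Psmb9 and Psmb10 encode the catalytic subunits of the immunoproteasome, which replace Psmb5, Psmb6 and Psmb7 and favour peptides that class I molecules can hold. Psmb8 stood at 6.56 and 6.92 in co-cultured MBA-15, 6.62 and 5.90 on arrays labelled MBA-15 alone, 3.91 and 3.95 in lone DA3, and 4.50 and 4.86 in co-cultured DA3. Both lone DA3 values lie below the lowest array median of 4.48, where a level cannot be told from background, and the difference was 2.81 ± 0.27 (limma adjusted p = 0.00122), the largest of the 9 in this comparison. Psmb9 stood at 5.99 and 6.01, 5.88 and 5.49, 4.69 and 4.73, and 4.68 and 5.00 in the same order of groups, with a difference of 1.29 ± 0.18 (limma adjusted p = 0.00516).

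Psmb10 was the least reproducible of the 3. Its level was 6.52 and 6.19 in co-cultured MBA-15, 4.91 and 5.00 in lone DA3, and 4.62 and 5.44 in co-cultured DA3. On the arrays labelled MBA-15 alone it was 6.63 and 5.08, a gap of 1.55 and the largest between any 2 arrays of a group among the 9 genes. Its difference of 1.40 ± 0.51 between co-cultured MBA-15 and lone DA3 did not pass (limma adjusted p = 0.142), although the arrays do not overlap. Without either or both of the arrays labelled MBA-15 alone the same difference had an adjusted p of 0.0378.

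None of the constitutive counterparts of these subunits was called. Psmb5 differed by 0.21 ± 0.51, Psmb6 by -0.09 ± 0.33 and Psmb7 by -0.38 ± 0.37 between co-cultured MBA-15 and lone DA3, with no call among the 3 (limma adjusted p = 0.898, 0.944 and 0.669). The difference of an immunoproteasome gene from its constitutive counterpart was not itself tested. Of 21 genes of the constitutive proteasome, its assembly and its activators 0 passed in either direction (limma), and their median difference was -0.01. Of all genes 6.08% passed as higher and 6.47% as lower. At those shares a list of 21 genes would hold few calls, so the absence of calls does not set this list apart. Psme2, a subunit of the interferon-inducible PA28 activator, was at 8.08 and 7.94 in co-cultured MBA-15 against 6.89 and 6.91 in lone DA3 (1.11, limma adjusted p = 0.062). Against co-cultured DA3, at 6.31 and 6.63, Psme2 passed (1.54, limma adjusted p = 0.0209). It was the 1 gene of the 21 that did, beside 8.28% of all genes that passed as higher. Its partner Psme1 stood at 8.77 and 8.36 in co-cultured MBA-15 against 8.50 and 8.56 in lone DA3, so its arrays overlapped.

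Tap1 and Tap2 encode the chains of the peptide transporter. Tap1 stood at 6.84 and 6.23 in co-cultured MBA-15, 6.59 and 6.15 on arrays labelled MBA-15 alone, 4.84 and 5.01 in lone DA3, and 4.49 and 4.43 in co-cultured DA3. Both DA3 groups lay below all 4 MBA-15 arrays, and the difference between co-cultured MBA-15 and lone DA3 was 1.61 ± 0.24 (limma adjusted p = 0.00707), or 3.04-fold. Tap2 stood at 6.37 and 5.40, 6.05 and 6.06, 5.01 and 5.01, and 4.73 and 4.51 in that order. Its co-cultured MBA-15 arrays were 0.97 apart, and the difference of 0.88 ± 0.29 did not pass (limma adjusted p = 0.116).

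Tapbp encodes tapasin, which bridges the transporter and the empty class I molecule. It was at 8.45 and 7.75 in co-cultured MBA-15, 8.04 and 8.16 on arrays labelled MBA-15 alone, 7.55 and 7.69 in lone DA3, and 6.78 and 6.81 in co-cultured DA3. Its difference of 0.48 ± 0.23 between co-cultured MBA-15 and lone DA3 did not pass (limma adjusted p = 0.274), and the lowest arrays were those of co-cultured DA3. Tapbp was also listed with Rps3a1 on 2 further probe sets, which were not used.

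Erap1 encodes the aminopeptidase of the endoplasmic reticulum that trims peptides to class I length. It stood at 7.08 and 7.04 in co-cultured MBA-15, 6.96 and 6.45 on arrays labelled MBA-15 alone, 6.06 and 6.26 in lone DA3, and 5.29 and 5.60 in co-cultured DA3. The 4 groups follow each other in this order without overlap between neighbours. The level in co-cultured MBA-15 was above lone DA3 by 0.90 ± 0.21 (limma adjusted p = 0.0348).

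Within assay number 3, an unexplained number in the sample descriptions, the differences of Psmb8, B2m, Tap1, Psmb9 and Erap1 were 2.97, 2.04, 1.21, 1.28 and 0.78. Within assay number 4 they were 2.65, 1.68, 2.00, 1.30 and 1.02. Leaving out lone DA3 array 1 left 1 of the 9 genes called and leaving out lone DA3 array 2 left 3, while 544 and 560 of all genes were then called as higher against 1213 with all arrays. The adjusted p of B2m was then 0.0727 and 0.0896, that of Erap1 0.206 and 0.12, and without lone DA3 array 1 that of Tap1 was 0.0657 and that of Psmb9 0.0505. B2m also missed the threshold without co-cultured MBA-15 array 2 (adjusted p = 0.0638), and Erap1 without co-cultured MBA-15 array 1 or 2 (0.108 and 0.117), after centring on the median (0.0525) and after quantile normalization (0.0542). Without co-cultured MBA-15 array 2, Tap2 (1.36, adjusted p = 0.0076) and Tapbp (0.83, adjusted p = 0.0322) passed.

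Between the 2 fractions of the co-culture more of these genes were called. In all, 7 of the 9 were higher in the MBA-15 fraction and 0 lower, namely Tap1, Psmb8, B2m, Erap1, Tapbp, Tap2 and Psmb9, in a comparison in which 8.28% of all genes passed as higher (limma, Benjamini-Hochberg adjustment). The median difference was 1.33 over the 9 genes and -0.07 over all genes. Arrays did not overlap for 8 of the 9, with MBA-15 higher (23.3% of all genes), and for Nlrc5, with MBA-15 lower (31.9%). Among all genes 1651 passed as higher and 894 as lower, and 1392 and 1281 after quantile normalization. This comparison shares the co-cultured MBA-15 arrays with the one against lone DA3, so the 2 sets of values are given side by side and are not independent.

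Tap1 differed by 2.07 ± 0.24 (limma adjusted p = 0.00324) and Psmb8 by 2.06 ± 0.27 (limma adjusted p = 0.00496). The co-cultured DA3 arrays, with medians of 4.64 and 4.58, held Tap1 at 4.49 and 4.43 and Psmb8 at 4.50 and 4.86. Levels this near the array median cannot be told from background. Erap1 differed by 1.62 ± 0.21 (limma adjusted p = 0.00466), against 0.90 with lone DA3 as the other side, and Tapbp by 1.30 ± 0.23 (limma adjusted p = 0.0139) against 0.48. For Erap1 and Tapbp both co-cultured DA3 arrays lay below both lone DA3 arrays. B2m (1.89 ± 0.32), Tap2 (1.26 ± 0.29) and Psmb9 (1.16 ± 0.18) passed too, while Psmb10 did not (1.33 ± 0.51, limma adjusted p = 0.148). Without either or both of the arrays labelled MBA-15 alone, Psmb10 passed (limma adjusted p = 0.047).

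Tap1, Psmb8, Psmb9 and Erap1 passed between the fractions in all 18 alternative fits, with the highest adjusted p at 0.0273, 0.0301, 0.0432 and 0.0263. Tap2 passed in 9 of the 18, missing the threshold also without both arrays labelled MBA-15 alone (adjusted p = 0.0689), and B2m and Tapbp passed in 16 of them. Tap2 also missed it without array 1 or 2 labelled MBA-15 alone (0.0689 for each), lone DA3 array 1 or 2 (0.0804 for each), co-cultured DA3 array 1 (0.0762) or array 2 (0.127). B2m missed it without co-cultured MBA-15 array 2 (0.0617). Blocked on assay number, Tap2 (0.175) and Tapbp (0.0837) were not called, and with only the 2 fractions in the fit neither were Tap2 (0.152), Tapbp (0.0832) and B2m (0.077). Assay number 3 is the only one that holds both fractions, and there the differences were 1.74 for Tap1, 2.42 for Psmb8, 2.51 for B2m, 1.75 for Erap1, 0.97 for Tapbp, 0.67 for Tap2 and 1.33 for Psmb9.

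**Figure D2:**
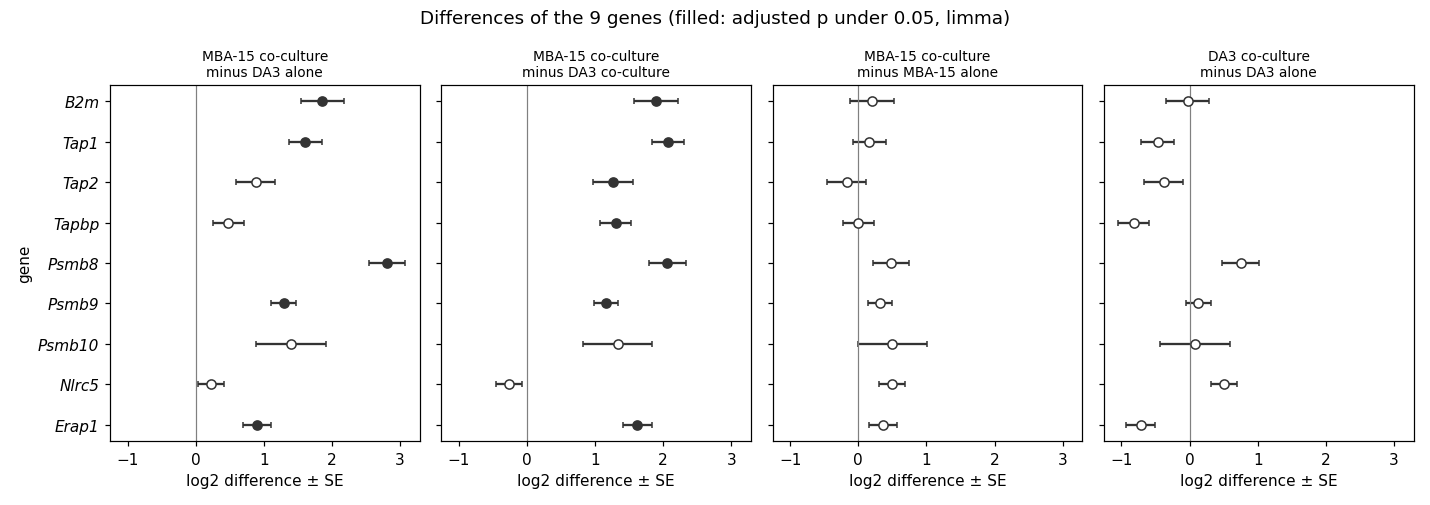
Log2 difference with its standard error for each of the 9 genes in 4 comparisons, filled where the adjusted p of limma is under 0.05. The filled points number 5 against lone DA3 and 7 against co-cultured DA3, all to the right of 0, and none is filled in the 2 comparisons of co-culture with the same line alone.

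Nlrc5, the transactivator that drives class I genes, was the exception among the 9 and also the gene with 19 probe sets. The probe set with the highest mean (10574100) was at 7.50 and 7.32 in co-cultured MBA-15, 6.81 and 7.01 on arrays labelled MBA-15 alone, 7.0 and 7.35 in lone DA3, and 7.85 and 7.51 in co-cultured DA3. Its difference between co-cultured MBA-15 and lone DA3 was 0.23 ± 0.19 (limma adjusted p = 0.579). It followed the mean of the other 8 genes with r = -0.43 over the 8 arrays, whereas for the 8 others this r, each against the mean of the rest, was 0.78 to 0.98. These r are descriptions over arrays that fall into the 2 lines, with no test.

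The other 18 probe sets of Nlrc5 gave another picture. In a fit over all 21789 probe sets with 1 symbol, added after this was seen, all 18 had a higher mean in co-cultured MBA-15 than in lone DA3, with a median difference of 1.02 and a range of 0.25 to 2.81. Of the 18, 16 passed as higher and 0 as lower (limma, Benjamini-Hochberg adjustment over all these probe sets, of which 5.86% passed as higher). The largest difference was at probe set 10574149, at 6.36 and 6.05 in co-cultured MBA-15, 5.74 and 5.72 on arrays labelled MBA-15 alone, 3.34 and 3.45 in lone DA3, and 3.59 and 3.91 in co-cultured DA3 (2.81 ± 0.17, limma adjusted p = 0.000297). Its 4 DA3 values lie below the lowest array median.

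With the mean of the 19 probe sets in place of the one with the highest mean, Nlrc5 was higher in co-cultured MBA-15 than in lone DA3 by 1.10 (limma adjusted p = 0.00214) and than in co-cultured DA3 by 0.88 (limma adjusted p = 0.00588). With the highest-mean probe set the second of these was -0.27 ± 0.19. The probe sets of a gene share its RNA and are not replicates, and why this probe set parts from the other 18 was not tested.

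**Figure D3:**
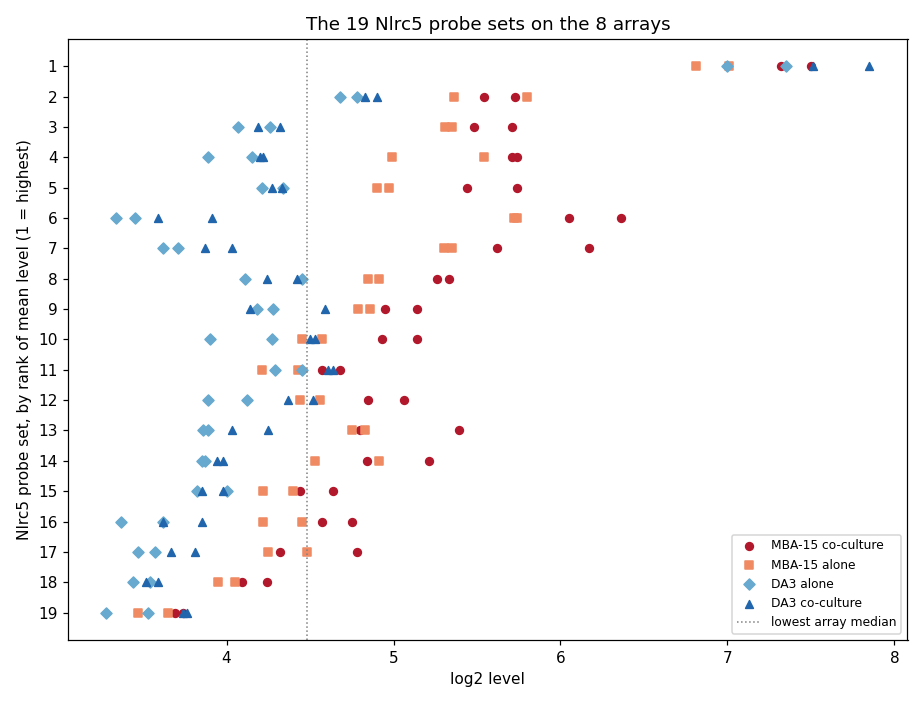
Log2 level of the 19 Nlrc5 probe sets on the 8 arrays, ordered by their mean with the highest at the top and marked by group; the dotted line is the lowest array median. In the top probe set the lone DA3 points overlap those of both MBA-15 groups, and the co-cultured DA3 points lie farthest to the right. In most rows below it the MBA-15 points lie to the right of the DA3 points.

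With the arrays labelled MBA-15 alone as the stromal side, fewer genes were called against lone DA3. Psmb8 (2.33 ± 0.27), Tap1 (1.44 ± 0.24) and Psmb9 (0.97 ± 0.18) were higher on arrays labelled MBA-15 alone, 3 of the 9, with 0 lower and 2.70% of all genes called as higher, 0.186% as lower (limma adjusted p = 0.00716, 0.0324 and 0.044). The arrays of 8 of the 9 genes, all but Nlrc5, did not overlap, with the MBA-15 label higher (18.4% of all genes). B2m, at 1.65 ± 0.32, had an adjusted p of 0.0533. The count was 1 without array 1 labelled MBA-15 alone and 0 without either lone DA3 array, where the adjusted p of Psmb8 was 0.0815 and 0.0801. Tap1 passed in some of these fits and not in others: it missed the threshold without array 1 or 2 labelled MBA-15 alone (0.202 and 0.0509), lone DA3 array 1 or 2 (0.257 and 0.179) or either co-cultured DA3 array (0.0546 for each). Psmb9 passed in 6 of 17 alternative fits, and missed the threshold without either co-cultured MBA-15 array (0.0705 for each), array 1 labelled MBA-15 alone (0.233) or lone DA3 array 1 or 2 (0.301 and 0.259). B2m passed without either co-cultured DA3 array (0.00592 for each), and Tap2 without either co-cultured MBA-15 array (0.0154 for each).

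On a linear scale with the mean of lone DA3 at 0% and the mean of co-cultured MBA-15 at 100%, the 8 genes other than Nlrc5 stood at a median of 89.2% on array 1 labelled MBA-15 alone and 56.1% on array 2. Array 2 is also the one with the higher Epcam level, while the mean of the 12 stromal markers was 8.42 on array 1 and 8.41 on array 2. The spread between genes was wide: B2m stood at 88.4% and 75.0%, Erap1 at 85.7% and 25.3%, Psmb8 at 89.9% and 48.0%, Psmb9 at 86.3% and 49.3%, and Psmb10 at 132.6% and 5.5%. Tap1 stood at 102.9% and 63.0%. Tap2 (112.9% and 114.3%) and Tapbp (77.1% and 104.5%) did not stand lower on array 2. The part of the epithelial signal on these arrays in the levels of the 9 genes was not tested.

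Co-cultured MBA-15 was compared with its labelled control, whose arrays carried high epithelial markers. An effect of carcinoma cells on the stromal line therefore cannot be told apart here from the make-up of those arrays. None of the 9 genes passed, against 0.0752% of all genes called as higher and 0.772% as lower. In limma 1 of the 9 had an unadjusted p under 0.05, Nlrc5 at 0.50 ± 0.19 (adjusted p = 0.438), beside 3.29% of all genes higher and 6.52% lower by that rule. The other 18 probe sets of Nlrc5 had a median of 0.30 here and a range of 0.06 to 0.65. The differences ran from -0.17 for Tap2 to 0.50 for Nlrc5 and Psmb10, with a median of 0.32 over the 9 and 0.04 over all genes. The 95% interval was -0.56 to 0.97 for B2m, -0.41 to 0.74 for Tap1, -0.16 to 1.12 for Psmb8 and -0.14 to 0.85 for Erap1.

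The arrays of B2m, Psmb9, Nlrc5 and Erap1 did not overlap, with co-culture higher, which held for 22.3% of all genes. Within assay number 3 the differences were 1.02 for Psmb8 and 1.11 for Psmb10, and within assay number 4 they were -0.06 and -0.11. For Tapbp they were -0.41 and 0.41 and for Tap2 -0.66 and 0.32. Epcam and the other 11 epithelial markers were all lower in co-cultured MBA-15 than on arrays labelled MBA-15 alone, and their part in these values was not tested.

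For the carcinoma line co-cultured DA3 was compared with lone DA3, and the 9 genes had differences of both signs. None passed, against 0.0100% of all genes called as higher and 0.0301% as lower, while in limma 2 of the 9 were higher and 2 lower at an unadjusted p under 0.05, beside 5.42% and 9.49% of all genes. Tapbp stood 0.82 ± 0.23 lower in co-culture (limma adjusted p = 0.227, 95% interval -1.37 to -0.28) and Erap1 0.72 ± 0.21 lower (limma adjusted p = 0.238, -1.21 to -0.22). Psmb8 stood 0.75 ± 0.27 higher (limma adjusted p = 0.293, 0.11 to 1.39) and Nlrc5 0.50 ± 0.19 higher (limma adjusted p = 0.306). Both lone DA3 values of Psmb8 (3.91 and 3.95) lay below the lowest array median of 4.48. On co-cultured DA3 array 1 Psmb8 was at 4.50, below the median of that array (4.64). The Nlrc5 value is that of its highest-mean probe set. Its other 18 probe sets had a median of 0.20 and a range of 0.01 to 0.44.

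Tap1, Tap2, Tapbp and Erap1 had both co-culture arrays below both lone arrays, which held for 22.4% of all genes, and Psmb8 and Nlrc5 had both above, which held for 31.4%. The median difference was -0.03 over the 9 genes and 0.04 over all genes. B2m differed by -0.03 ± 0.32, Psmb9 by 0.13 ± 0.18 and Psmb10 by 0.08 ± 0.51, all with overlapping arrays. Within assay number 3, the only one with both groups, Tapbp differed by -0.91, Erap1 by -0.97, Tap1 by -0.53 and Psmb8 by 0.55.

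Beside these values stand the 12 stromal markers. Of them 9 were higher in co-cultured DA3 than in lone DA3 on arrays that did not overlap. That held for 31.4% of all genes. The part of the stromal markers in the values of the 9 genes was not tested. In bulk RNA fewer cells of a type and less RNA per cell cannot be told apart.

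The co-culture difference itself was compared between the lines with an interaction term. None of the 9 genes passed, while 0.0602% of all genes were called with a larger value in DA3 and 0% with a smaller one, and in limma 2 of the 9, Erap1 and Tapbp, had a smaller value in DA3 at an unadjusted p under 0.05, beside 3.87% of all genes smaller and 2.45% larger. The co-culture difference of Erap1 was 1.07 ± 0.29 log2 units smaller in DA3 than in MBA-15 (limma adjusted p = 0.502) and that of Tapbp 0.82 ± 0.32 smaller (limma adjusted p = 0.75). Both values rest in part on arrays labelled MBA-15 alone.

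The rest of the class I pathway was read from lists of genes grouped by role. Of 23 genes of class I and class I-like heavy chains, 11 had a probe set with their symbol alone, and H2-K1 and H2-D1, which share probe sets, were not analysed here. In all, 5 of the 11 were higher in co-cultured MBA-15 than in lone DA3 and 0 lower: H2-T10 (3.67 ± 0.20, limma adjusted p = 0.000229), Mr1 (2.42 ± 0.25), Cd1d1 (1.45 ± 0.25), Hfe (1.44 ± 0.19) and H2-Q2 (1.32 ± 0.22). Of all genes 6.08% passed as higher in this comparison and 6.47% as lower. The median was 1.09 over the 11 genes. Both lone DA3 values of Cd1d1 and Hfe lay below the lowest array median, as did lone DA3 array 1 for H2-T10 (4.47) and array 2 for H2-Q2 (4.20).

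H2-T10, a nonclassical heavy chain gene, was at 8.42 and 8.29 in co-cultured MBA-15, 7.99 and 7.70 on arrays labelled MBA-15 alone, 4.47 and 4.90 in lone DA3, and 5.57 and 5.30 in co-cultured DA3. Heavy chain genes are close relatives, so a probe set may read more than the gene it is named for. Mr1, which presents microbial vitamin B metabolites, was at 7.39 and 7.95, 7.55 and 7.25, 5.00 and 5.51, and 4.72 and 4.61 in the same order. Between the co-culture fractions Mr1 (3.0), H2-T10 (2.92) and Hfe (1.11) passed as higher in MBA-15, 3 of the 11, beside 8.28% of all genes. In co-cultured against lone DA3 0 of the 11 passed (limma, 4 higher and 0 lower at an unadjusted p under 0.05, beside 5.42% and 9.49% of all genes), with H2-Q2 at 0.88 and H2-T10 at 0.75 (limma adjusted p = 0.209 and 0.215). The remaining genes of these 4 were H2-M2 (0.33) and H2-M5 (0.32). They were at 3.66 to 4.26 and 3.63 to 4.11 on the 8 arrays, all below the lowest array median of 4.48.

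The chaperones of peptide loading, which fold and hold the empty class I molecule, gave no call. Of 10 measured genes, among them Calr, Canx and Pdia3, 0 passed between co-cultured MBA-15 and lone DA3 (limma, 0 higher and 1 lower at an unadjusted p under 0.05), and their median was -0.29. Calr, the chaperone calreticulin, differed by -0.61 (limma adjusted p = 0.162). Of 9 class II processing genes 0 passed (limma, 0 higher and 1 lower at an unadjusted p under 0.05), with a median of 0.05. Ciita, the class II counterpart of Nlrc5, was at 3.57 to 3.98 and Cd74, the invariant chain, at 3.45 to 3.84 on the 8 arrays, all below the lowest array median. Of 7 cytosolic peptidases 0 passed (limma, 2 higher and 1 lower at an unadjusted p under 0.05). For these unadjusted counts the shares over all genes are not given. Between the fractions Nrd1, the peptidase nardilysin, was the only gene of these 3 lists to pass (0.75, limma adjusted p = 0.0383), beside 8.28% of all genes as higher.

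Upstream of the class I genes, 5 of 12 genes of interferon ligands, receptors and signalling were higher in the MBA-15 fraction than in the DA3 fraction and 0 lower, beside 8.28% and 4.48% of all genes: the kinase gene Jak1 (1.48) and the receptor chain genes Ifngr2 (1.42), Ifnar2 (1.13), Ifnar1 (1.07) and Ifngr1 (1.06), with limma adjusted p = 0.00206 to 0.0391. Against lone DA3 1 of the 12 passed, beside 6.08% of all genes as higher, Jak1 at 1.19 (limma adjusted p = 0.00384). The difference between these counts was not tested. The medians were 0.68 and 0.11. Ifng stood at 3.67 to 3.95 and Ifnb1 at 3.92 to 4.27 on the 8 arrays, below the lowest array median, so no ligand level could be told from background.

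Of 16 transcriptional regulators of class I genes, Stat2 (2.32), Irf1 (1.52) and Nfyc (0.95) were higher and Irf8 (-0.65) lower in the MBA-15 fraction than in the DA3 fraction (limma adjusted p = 0.0338, 0.00663, 0.0456 and 0.0166). Of all genes 8.28% passed as higher between the fractions and 4.48% as lower. Against lone DA3 0 of the 16 passed (limma, 3 higher and 1 lower at an unadjusted p under 0.05), with Stat2 at 1.74 and its partner gene Irf9 at 1.62 (limma adjusted p = 0.0853 and 0.0563). Shares of all genes by that unadjusted rule are not given here, so these counts have no rate beside them. Stat2 encodes part of the factor that answers type I interferon, and its co-cultured MBA-15 arrays, at 8.45 and 6.71, were far apart. Irf1, an activator of Tap1 and Psmb9, was at 6.97 and 7.40 in co-cultured MBA-15, 7.18 and 6.84 on arrays labelled MBA-15 alone, 6.31 and 6.72 in lone DA3, and 5.66 and 5.68 in co-cultured DA3.

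Within DA3 several of these upstream genes had low co-culture values, and 0 passed. Of the 12 interferon signalling genes 4 were lower and 0 higher at an unadjusted p under 0.05 in limma, beside 9.49% and 5.42% of all genes, and 8 of 12 had both co-culture arrays below both lone arrays, beside 22.4% of all genes. Jak2, a kinase of the interferon gamma receptor, was at 6.95 and 6.06 in co-culture against 8.65 and 9.22 in lone DA3 (-2.43, limma adjusted p = 0.186). Ifnar2 was at 7.12 and 7.28 against 8.46 and 8.61 (-1.34, limma adjusted p = 0.0844), and Irf1 differed by -0.84 (limma adjusted p = 0.209). The median of the 12 genes was -0.42, beside 0.04 for all genes.

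**Figure D4:**
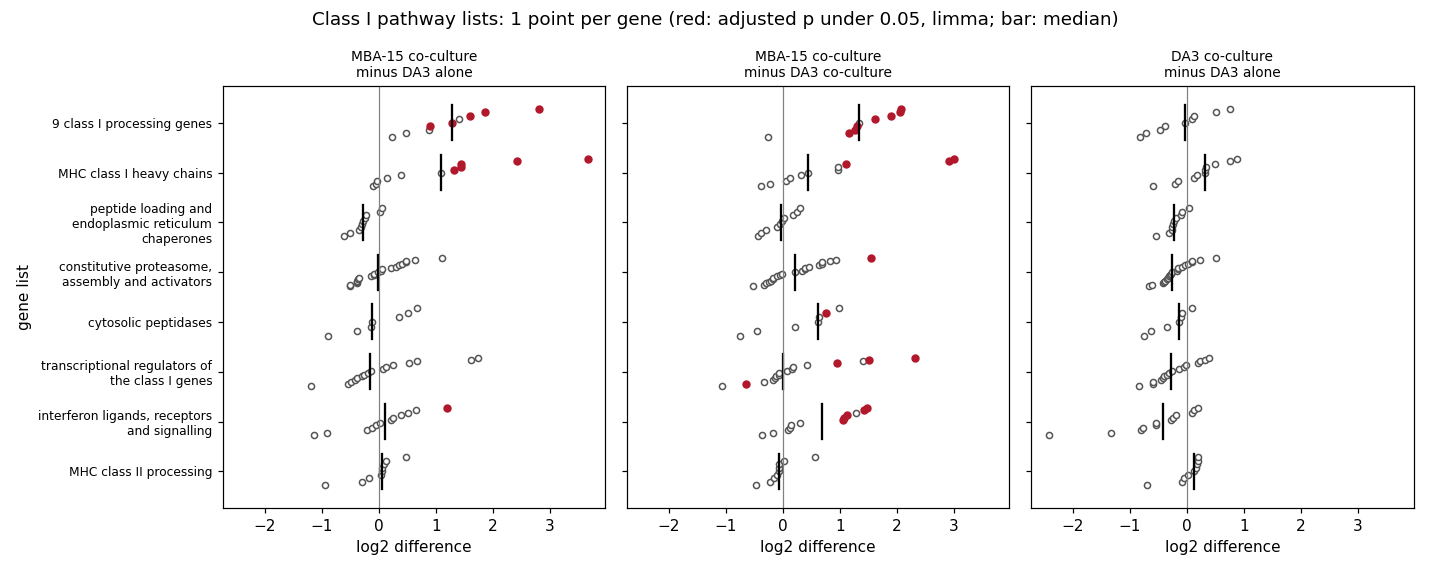
Log2 difference of each gene of the 9 and of 7 pathway lists in 3 comparisons, with a bar at the median of each list and red points where the adjusted p of limma is under 0.05. Against lone DA3 the red points lie in the 9 genes, the heavy chains and, with 1 gene, interferon signalling, and in co-cultured DA3 against lone DA3 no point is red.

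The genes whose pattern was most like the mean of the 9 were ranked by Pearson r over the 8 arrays among 11438 named genes with a group mean above the lowest array median. The 5 highest were Vps35l (r = 0.998), Pgm1 (0.995), Ube2l6 (0.993), Tdrkh (0.991) and Ddx58 (0.991). Whether these 5 genes share a function was not tested. Vps35l stood at 8.17 and 7.83 in co-cultured MBA-15 and 8.06 and 7.48 on arrays labelled MBA-15 alone. It was at 6.24 and 6.46 in lone DA3 and 5.93 and 6.35 in co-cultured DA3. Pgm1 stood at 9.35 and 9.14, 9.19 and 8.82, 8.13 and 8.07, and 7.72 and 8.09 in that order. The 4 DA3 values of Tdrkh, 3.45 to 3.55, lay below the lowest array median of 4.48. Ube2l6, the enzyme that conjugates the ubiquitin-like protein Isg15, stood at 7.96 and 7.71 in co-cultured MBA-15, 7.84 and 6.56 on arrays labelled MBA-15 alone, 4.83 and 4.78 in lone DA3, and 4.39 and 5.16 in co-cultured DA3. Ddx58, a cytosolic sensor of viral RNA, stood at 9.66 and 9.36, 9.0 and 8.25, 6.09 and 6.34, and 6.17 and 6.32 in that order. The arrays fall into the 2 lines and share their normalization, so these r are descriptions and carry no p.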

How the data were processed

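Total RNA of 8 samples in 4 groups was measured on 8 arrays. The deposited values are log2 levels per probe set, made by the authors with RMA, which corrects background, normalizes arrays to each other and summarizes probes; RMA and Partek 6.5 are named in the submitters' processing notes. Parameters are not given in the sources used here, and the log2 scale was read from the values. A difference is relative to the other genes of an array. Array medians lay between 4.48 and 4.64, and the number of arrays limits the precision.

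The platform annotation gave 1 symbol to 21789 of 35556 probe sets and several to 1621, and did not list 12146. The 1 with the highest mean was kept for each of 19938 genes. limma 3.58.1 (lmFit, eBayes, under R 4.3.3) estimated 4 group means from the 8 arrays (4 residual and 2.6 prior degrees of freedom), two-sided, with Benjamini-Hochberg adjustment over all genes. Errors are standard errors of limma. The fit was tested on simulated data. Named were the 9 genes, Epcam, genes that passed or were among the 4 largest differences of a list (in part), and the 5 nearest patterns, predicted and clone-named loci left out; Psmb5, Psmb6, Psmb7, Psme1, Canx, Pdia3, Ciita, Cd74, Ptprc, Ifng and Ifnb1 were added for their roles. The members and lists were chosen with earlier results of these data known. All 8 deposited columns were used. The alternatives were the assay number or replicate number as a block, the mean of a gene's probe sets, a filter on dim genes, 2 other scalings, another variance prior, fewer arrays, and a fit over probe sets.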

Additional observations from a re-analysis of the deposited data

Results flagged for a closer look

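Erap1 stood out because its co-culture arrays lay above the arrays labelled alone in MBA-15 and below them in DA3. The interaction term was -1.07 ± 0.29 (limma adjusted p = 0.502, unadjusted p = 0.00861), so the difference between the lines did not pass. Within assay number 3 it was -1.56.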

How the results depend on the processing

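With 2 arrays a group the spread is poorly known, and levels near the array medians cannot be told from background. Among settings that left out no array of a comparison, 1 moved a count of the 9 genes by more than 1.5 times: fitting only the 2 co-culture fractions called 4 in place of 7. The other settings called 5 to 8 between the fractions (5 with the assay number as a block), 4 to 6 in place of 5 between co-cultured MBA-15 and lone DA3, and 2 to 4 in place of 3 between the arrays labelled alone. Leaving out each array in turn called 0 to 3 genes between the arrays labelled alone, 1 to 6 between co-cultured MBA-15 and lone DA3, 6 to 7 between the fractions, and 0 in the other 3 comparisons. With the replicate block 4 of 9 genes passed between co-cultured MBA-15 and lone DA3, 7 between the fractions and 2 between the arrays labelled alone. Same-numbered arrays also share an assay number in all groups but co-cultured DA3. Deviations aligned by replicate number correlated at 0.01 to 0.21 among those 3 groups, so a pairing was not shown there. With co-cultured DA3 they correlated at -0.41 to 0.31. Its same-numbered arrays have other assay numbers, so those values cannot show a pairing by assay number.

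The mean of its probe sets turned Nlrc5 from -0.27 to 0.75 (arrays labelled alone) and to 0.88 (fractions). Other changes of sign were in differences that did not pass. Under quantile normalization these were Tap2 (0.00) and Tapbp (0.05) in MBA-15, B2m (0.08) in DA3 and the interaction of Nlrc5 (0.18). With the assay number as a block they were Psmb10 in DA3 (-0.03) and the interactions of Tap2 (0.06) and Nlrc5 (0.11), and with arrays centred on their median Psmb10 in DA3 (-0.04). Leaving out an array gave ranges of -0.14 to 0.47 for Tap1, -0.65 to 0.31 for Tap2, -0.35 to 0.35 for Tapbp and -0.28 to 1.28 for Psmb10 in MBA-15, and of -0.56 to 0.50 for B2m, -0.03 to 0.29 for Psmb9 and -0.33 to 0.49 for Psmb10 in DA3. For the interaction they were -0.76 to 0.29 for B2m, -0.70 to 0.27 for Tap2, -0.09 to 0.63 for Psmb8, -0.38 to 0.01 for Psmb9, -1.20 to 0.36 for Psmb10 and -0.17 to 0.17 for Nlrc5. The cause of these changes was not tested.

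Between co-cultured MBA-15 and lone DA3, centring each array on its median moved the median of all genes from 0.00 to -0.11. Over all genes, counts of higher and lower calls moved by more than 1.5 times under some settings. Between the fractions they were 1651 and 894, and 720 and 403 with only those arrays in the fit. For co-culture in MBA-15 they were 15 and 154, from 0 and 13 (without co-cultured MBA-15 array 2) to 45 and 289 (variance prior with trend and robust). For co-culture in DA3 they were 2 and 6, from 0 and 0 to 46 and 88 (the same prior), and for the interaction 12 and 0, from 0 and 0 to 44 and 0. Between the arrays labelled alone they were 539 and 37, and 136 and 0 without lone DA3 array 1.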
